A study of Mus musculus with 8 samples.

Results

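Neurons_mixed is a cluster of 1710 single cells from the paraventricular nucleus of the hypothalamus (PVN) of C57BL/6 mice. Its members were taken by their cluster label in the authors' deposited table of cells, with no cut of any measured value. They are 4.79% of the 35672 deposited cells and 24.1% of the 7109 neurons, which lie in 9 of the 33 clusters. Most of the authors' cell type of the same name, which holds 2085 cells in all, is this cluster; the remaining 375 cells are the Neurosecretory cluster. The cells had a median of 1194.5 UMIs (unique molecular identifiers, each standing for 1 captured RNA molecule), 732.5 detected genes and a mitochondrial share of 19.8%, the highest median share of all 33 clusters.

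The study compared female and male mice with and without stress in 8 droplet libraries (10x Genomics 3' v2 chemistry). Every combination of sex, cohort and exposure was sampled once. In the baseline cohort, at 10 weeks of age, unstressed controls stood beside mice restrained for 15 min (acute restraint stress, ARS). In the cohort named CMS, at 11 weeks, controls stood beside mice restrained for the same time after 21 days of chronic mild stress; these controls carry CMS in their titles although the labels call them unstressed. The dissected PVN was dissociated with papain, and in stressed mice it was taken 5 h after restraint. The sources used here do not give the number of animals per library, and no group has a replicate library. P-values of the fitted models therefore rest on the spread between libraries left over by sex, cohort and exposure, shared in part across clusters. That spread also holds any interaction that was not fitted.

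The PVN holds the neurons that start the hormonal stress response, among them cells that release corticotropin-releasing hormone or vasopressin (AVP), mixed with other glutamatergic neurons and with inhibitory GABA neurons. Neurons are recognised in single-cell data by synaptic genes such as Snap25 and Syt1, which encode parts of the machinery for vesicle release. Mitochondrial transcripts are made from the mitochondrial genome, and their share of a cell's UMIs differs between cell types and serves as a common measure of cell quality in dissociated tissue. Snap25 and Syt1 levels were not analysed here, and the neuronal name of the cluster is the authors' own. The word mixed and the lack of a transmitter in the name are likewise theirs.

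Across the 8 libraries the table held 3523 to 5777 cells and 9924892 to 15760435 UMIs per library. Of 34942 distinct cell barcodes, 722 occurred in more than 1 library. Such a barcode was carried by 80 Neurons_mixed cells (4.68%), beside 4.07% of all cells.

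The members spread widely in mitochondrial share and less in depth. Their UMIs ran from 499 to 5147, with the middle 50% of cells between 915 and 1519.5, and their genes from 351 to 2299. Both lower ends are also the lowest values of any deposited cell. The mitochondrial share ran from 0% to 29.99%, where the deposited cells end, with the middle 50% between 11.8% and 25.2%. In all, 25.9% of members had a share of 25% or more and 13.98% had one under 5%. Mitochondrial UMIs themselves were not the most numerous of the table: their median was 228 per cell, the 6th highest of the 33 clusters, beside 439 in GABA_1, the highest. The median of the other UMIs was 983.5, the 5th lowest.

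In the order of the 33 clusters by median mitochondrial share, Neurons_mixed stood above Glut_1 (14.5%), which was followed by GABA_1 (14.2%), Oligodendrocytes_3 (11.3%) and AVP_2 (9.40%). The lowest was Microglia_1 (1.18%). The other neuronal clusters lay far below, at 2.70% in AVP_1 and 4.11% in Neurosecretory. By median UMIs, Neurons_mixed was 5th from the bottom, between Neurosecretory (1218) and Oligodendrocytes_3 (1059.5), with Astrocytes_2 (755) the lowest and Glut_2 (7649) the highest. By genes it was 7th from the bottom, between Neurosecretory (841) and Astrocytes_1 (724). The clusters of this table were drawn from the expression of these same cells, so differences between clusters are given as descriptions, without a test.

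**Figure D1:**
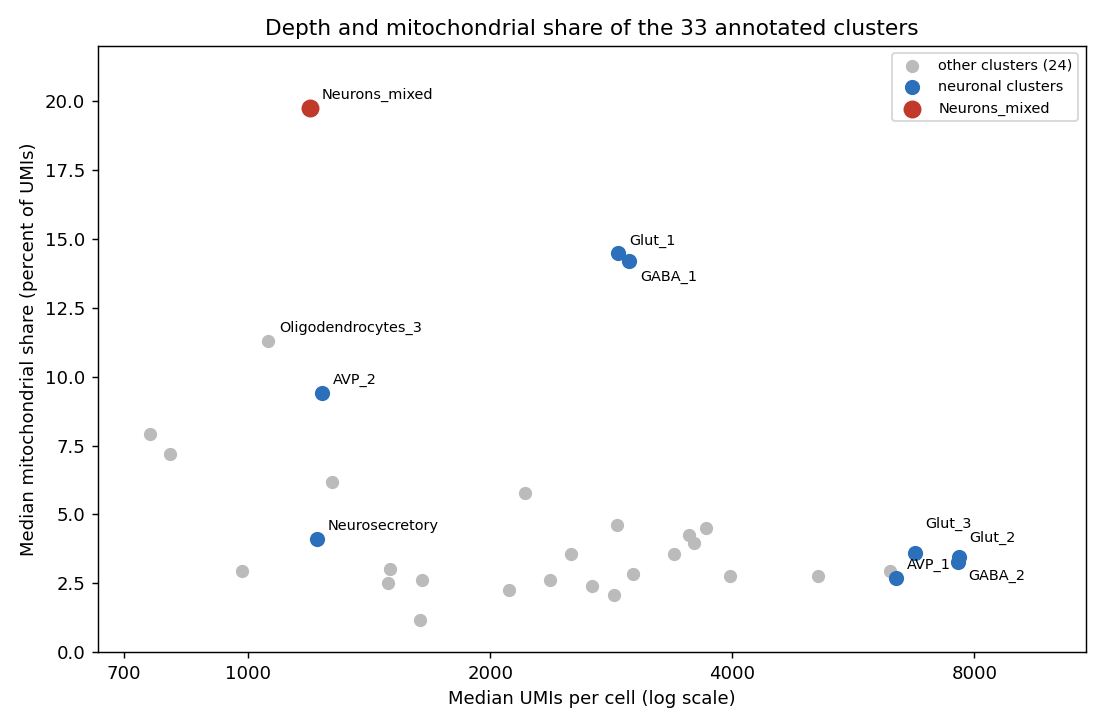
Median UMIs per cell (x axis, log scale) against median mitochondrial share (y axis, percent of UMIs) for the 33 annotated clusters, all libraries pooled; each point is 1 cluster. Neurons_mixed (red) combines the highest mitochondrial share, 19.8%, with a median of 1194.5 UMIs, while Glut_1 and GABA_1 lie at 14.5% and 14.2% with 2885 and 2979 UMIs.

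The pooled medians held within libraries. The library medians of mitochondrial share in Neurons_mixed were 17.1% (female baseline control), 22.9% (male baseline control), 19.0% after ARS in baseline females, 19.8% in males so treated, 19.0% (female CMS control), 19.2% (male CMS control), 20.05% (female CMS ARS) and 22.1% (male CMS ARS). Every one lay above the values of GABA_1 (12.5% to 16.5%), the larger and shallower of the GABA clusters, and of Glut_1 (13.4% to 16.6%), the shallowest glutamatergic cluster. The same held for AVP_2 (8.81% to 13.1%), a small cluster of 128 cells with as few as 2 cells in a library. Within a library the excess was 3.27 to 9.36 points over GABA_1, 2.94 to 8.69 over Glut_1 and 6.90 to 11.8 over AVP_2.

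Depth separated the cluster from GABA_1 and Glut_1 but not from AVP_2. In the same order of libraries, Neurons_mixed had a median of 1417, 1172, 1260, 1131, 1114, 1270, 1130 and 1131 UMIs. GABA_1 had 2536 to 3276.5 and Glut_1 2344 to 3342.5, so that their cells held 2.16 to 2.88 and 2.05 to 2.96 times the UMIs of Neurons_mixed cells of the same library. The library medians of AVP_2, 1062.5 to 2178.5, overlapped those of Neurons_mixed. Genes followed the same pattern: 686 to 843 in Neurons_mixed, 1383 to 1709 in GABA_1, 1351 to 1717.5 in Glut_1 and 585.5 to 901 in AVP_2.

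**Figure D2:**
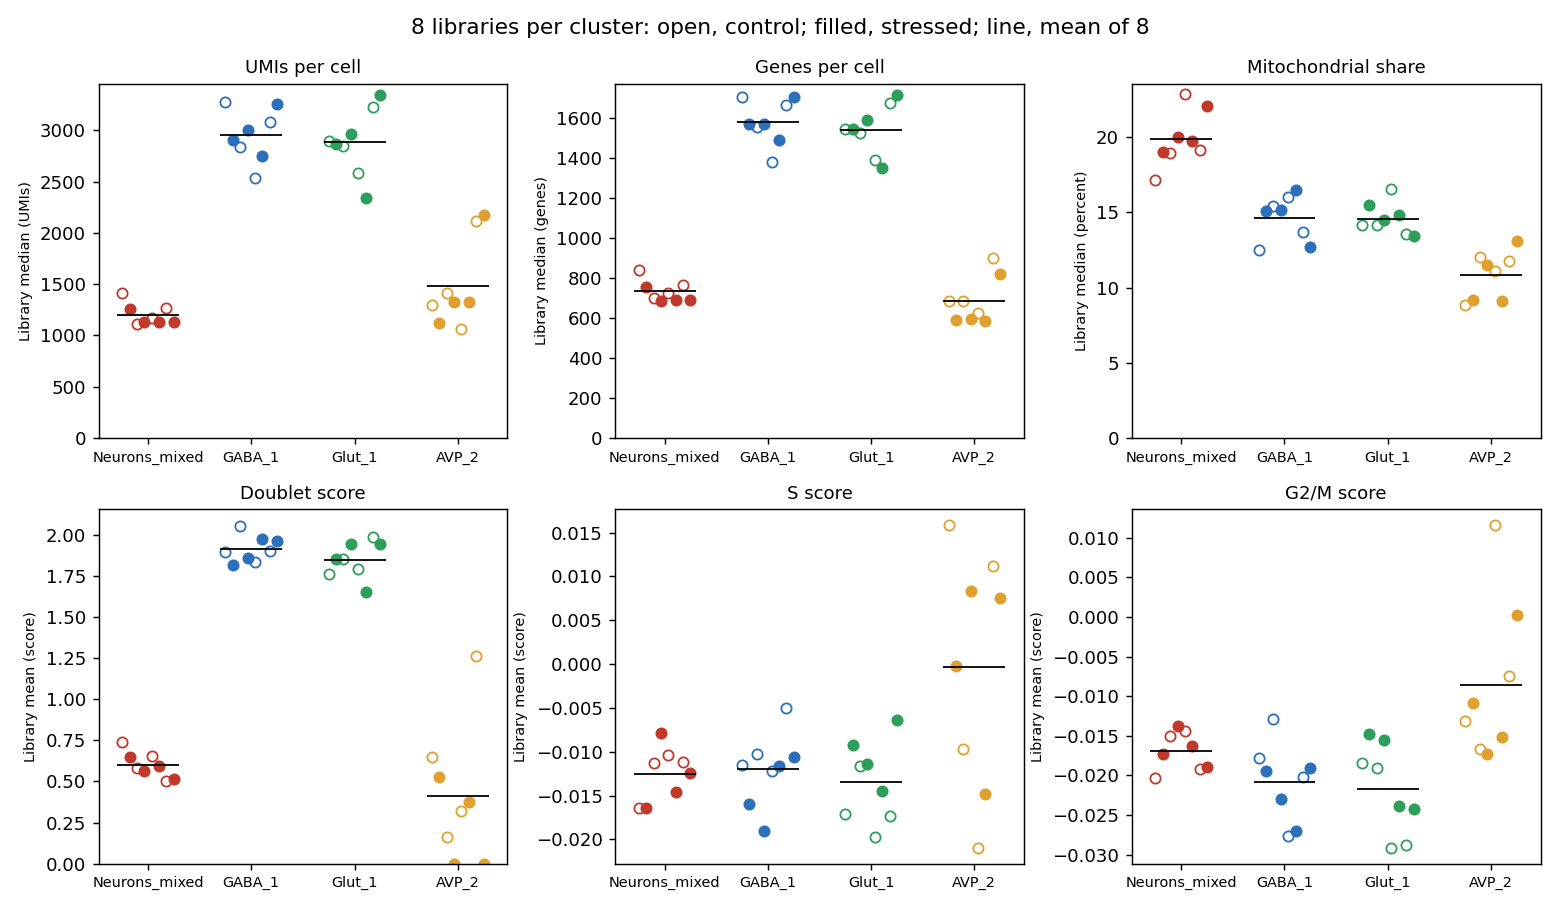
Library values of 6 measures in Neurons_mixed, GABA_1, Glut_1 and AVP_2: medians of UMIs, genes and mitochondrial share (percent of UMIs) in the upper row, means of the 3 scores in the lower row; each circle is 1 of 8 libraries (open, control; filled, stressed) and lines are means. Neurons_mixed stands apart from all 3 in mitochondrial share, apart from GABA_1 and Glut_1 in depth and doublet score, and from none of them in S or G2/M score.

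The mitochondrial excess over GABA_1 and Glut_1 among cells of like depth depended on which UMIs were matched. Matching on all UMIs made it smaller in some libraries and larger in others. Among cells with 1200 to 2400 UMIs, the library median was still higher in Neurons_mixed than in GABA_1 in 8 of 8 libraries, by 2.17 to 7.01 points, and higher than in Glut_1 in 8 of 8, by 1.78 to 5.52 points. Mitochondrial UMIs count toward that total, so the same was done without them. Among cells with 1200 to 1600 non-mitochondrial UMIs the excess over GABA_1 was present in 6 of 8 libraries (differences of -5.96 to 4.79 points, with as few as 14 cells) and that over Glut_1 in 5 of 8 (-3.60 to 3.13, as few as 9 cells). Pooled over libraries, the medians at that depth were 19.0%, 17.2% and 18.2%. At 1600 to 2400 non-mitochondrial UMIs, which 102 Neurons_mixed cells reached, the order turned: 13.95% in Neurons_mixed beside 16.1% in GABA_1 and 16.1% in Glut_1. In AVP_2 the pooled share stayed below that of Neurons_mixed in each non-mitochondrial range, for example 12.4% beside 20.4% at 800 to 1200 UMIs (40 and 685 cells).

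Gene numbers also stayed lower within set ranges of depth. Among cells with 1200 to 2400 UMIs the median was lower in Neurons_mixed in 8 of 8 libraries, with differences of -316 to -181 genes against GABA_1 and of -253.5 to -131.5 against Glut_1. Within that range its cells were still shallower, with library medians of 1431 to 1617 UMIs beside 1881 to 2151.5 in GABA_1. In the narrower range of 1200 to 1600 non-mitochondrial UMIs the median was lower than in GABA_1 in 7 of 8 libraries. It was lower than in Glut_1 in 8 of 8, and the pooled medians were 954.5, 1032 and 1020 genes. Depth inside this range was not compared. The ranges below and above it (800 to 1200 and 1600 to 2400) held 685 and 102 Neurons_mixed cells, but 27 and 536 GABA_1 cells. Whether a remaining difference in depth accounts for the lower gene numbers was not tested.

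Neurons_mixed supplied a growing part of the neurons as the mitochondrial share rose. Of neurons with a share under 5%, 8.93% were Neurons_mixed cells. In successive bands of 5 points the part was 14.4%, 15.6%, 33.2% and 52.6%, and it reached 67.7% among neurons at 25% to 30%. Neurons as a whole made up 13.3% of all cells in the lowest band and 87.1% in the highest, where Neurons_mixed alone was 59.0% of 751 cells of any type. The cluster held 2.22% of all UMIs in the table but 7.22% of the mitochondrial ones. The deposited cells end at 29.99%, and 10.5% of Neurons_mixed cells lay above 28%, beside 2.16% in GABA_1 and 2.97% in Glut_1.

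**Figure D3:**
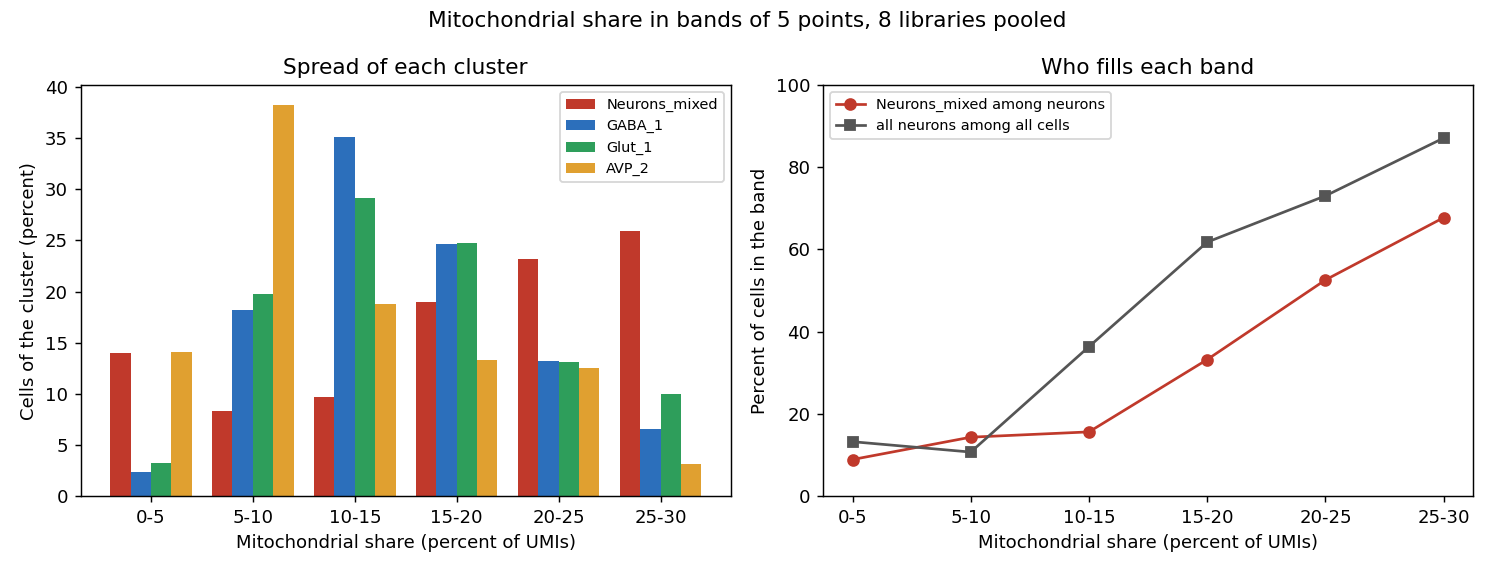
Left, percent of the cells of Neurons_mixed, GABA_1, Glut_1 and AVP_2 in each 5-point band of mitochondrial share (percent of UMIs). Right, in the same bands, Neurons_mixed as a percent of neurons and neurons as a percent of all cells, 8 libraries pooled. Neurons_mixed has its fullest band at 25% to 30%, where it makes up 67.7% of the neurons.

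The doublet score, a deposited number meant to be high for droplets with more than 1 cell, was low. The library means were 0.740 (female baseline control), 0.653 (male baseline control), 0.651 after ARS in baseline females, 0.596 in males so treated, 0.581 (female CMS control), 0.503 (male CMS control), 0.565 (female CMS ARS) and 0.513 (male CMS ARS). They lay below every library of GABA_1 (1.81 to 2.05) and Glut_1 (1.65 to 1.98) and overlapped AVP_2 (0 to 1.26). A score of exactly 0 was given to 57.6% of Neurons_mixed cells, to 10.8% of GABA_1 cells and to 27.1% of all cells. The score followed depth: across the members its Spearman correlation with UMIs was 0.551 (0.418 to 0.619 within libraries, 1710 cells that share 8 libraries), and the part at 0 fell from 98.2% under 800 UMIs to 22.2% at 1600 to 2400. At that depth the means were 1.24 in Neurons_mixed, 1.60 in GABA_1 and 1.44 in Glut_1. At 1200 to 1600 UMIs the order was the other way, with 0.821 in Neurons_mixed beside 0.585 and 0.591.

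The 239 members with a mitochondrial share under 5% stood apart in this score. Of these, 99.2% had a doublet score of 0, beside 50.8% of the other members. The same was seen within ranges of depth. Among cells with 1200 to 1600 UMIs, 48 of 49 low-share members had a score of 0 and 144 of 447 of the others. At 1600 to 2400 UMIs the counts were 29 of 30 and 44 of 299. The low-share members had a median of 1049 UMIs, and they were found in every library, as 8.37% (male baseline control) to 22.3% (male CMS control) of the cluster. Among cells under 5% in other neuronal clusters, a score of 0 was given to 92.9% of 212 in Neurosecretory and 94.4% of 18 in AVP_2, clusters of similar depth, where 94.1% and 84.4% of all cells had that score. It was given to 59.0% of 39 in GABA_1 and 75% of 28 in Glut_1, beside 10.8% and 17.4% of all cells of these clusters. In the deep clusters AVP_1 and GABA_2 it was given to 0.641% of 780 and 1.76% of 908. The cut at 5% was chosen after the values were seen, and no test was made.

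**Figure D4:**
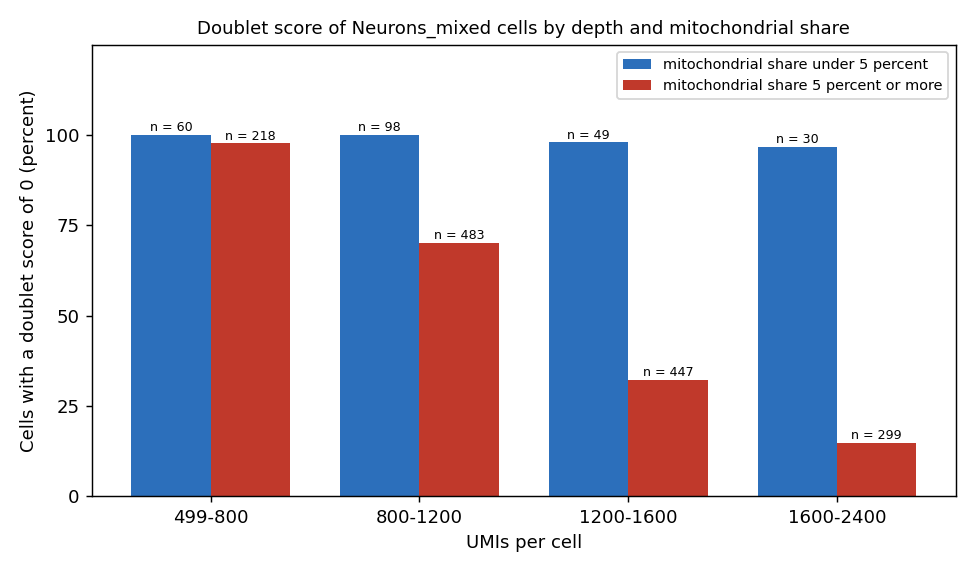
Percent of Neurons_mixed cells with a doublet score of 0 (y axis) in 4 ranges of UMIs per cell (x axis), for cells with a mitochondrial share under 5% (blue) and of 5% or more (red), 8 libraries pooled; n is the number of cells. The blue bars stand at 96.7% or more in each range while the red bars drop to 14.7%; the 26 cells above 2400 UMIs, of which 2 are low in mitochondrial share, are not drawn.

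The S and G2/M scores, which sum up expression of genes of DNA replication and of division, set Neurons_mixed little apart by library mean. Its median S score, -0.0282, was the lowest of the 33 clusters, beside -0.0155 in GABA_1, -0.0176 in Glut_1 and -0.0147 in AVP_2. Its mean S score over all cells, -0.0130, was the 2nd lowest of the 33 clusters, between GABA_1 (-0.0117) and Glut_1 (-0.0132), and its mean G2/M score, -0.0169, was 12th from the bottom. By library the S score ran from -0.0164 to -0.00792 and the G2/M score from -0.0203 to -0.0138, and both ranges overlapped those of GABA_1, Glut_1 and AVP_2. Across members the S score hardly followed mitochondrial share (Spearman correlation -0.043).

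The number of Neurons_mixed cells varied between libraries beyond counting error. The cluster held 269 of 1214 neurons in the female baseline control library (22.2%, exact Clopper-Pearson 95% interval 19.9% to 24.6%) and 239 of 721 in the male one (33.1%, 29.7% to 36.7%). After ARS alone it held 285 of 1156 in females (24.7%, 22.2% to 27.2%) and 177 of 638 in males (27.7%, 24.3% to 31.4%). In the CMS cohort the controls had 233 of 992 in females (23.5%, 20.9% to 26.3%) and 121 of 667 in males (18.1%, 15.3% to 21.3%). The stressed libraries of that cohort had 175 of 676 in females (25.9%, 22.6% to 29.4%) and 211 of 1045 in males (20.2%, 17.8% to 22.8%). The 4 female libraries lay within 22.2% to 25.9%, whereas the male ones held both the highest and the lowest values. These intervals cover counting error only.

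The cluster was the largest group of neurons in 4 libraries and the second largest in the other 4, where GABA_1 led. Its share of neurons had a coefficient of variation of 19.1% over the 8 libraries, beside 15.6% for GABA_1, 15.8% for Glut_1 and 61.8% for AVP_1. As a share of all cells it was 4.84%, 6.47%, 4.93%, 4.62%, 5.15%, 3.20%, 3.51% and 5.99%, in the order of libraries used above. That share also carries the yield of neurons, which ranged from 13.6% of cells in the female CMS ARS library to 29.7% in the male one.

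**Figure D5:**
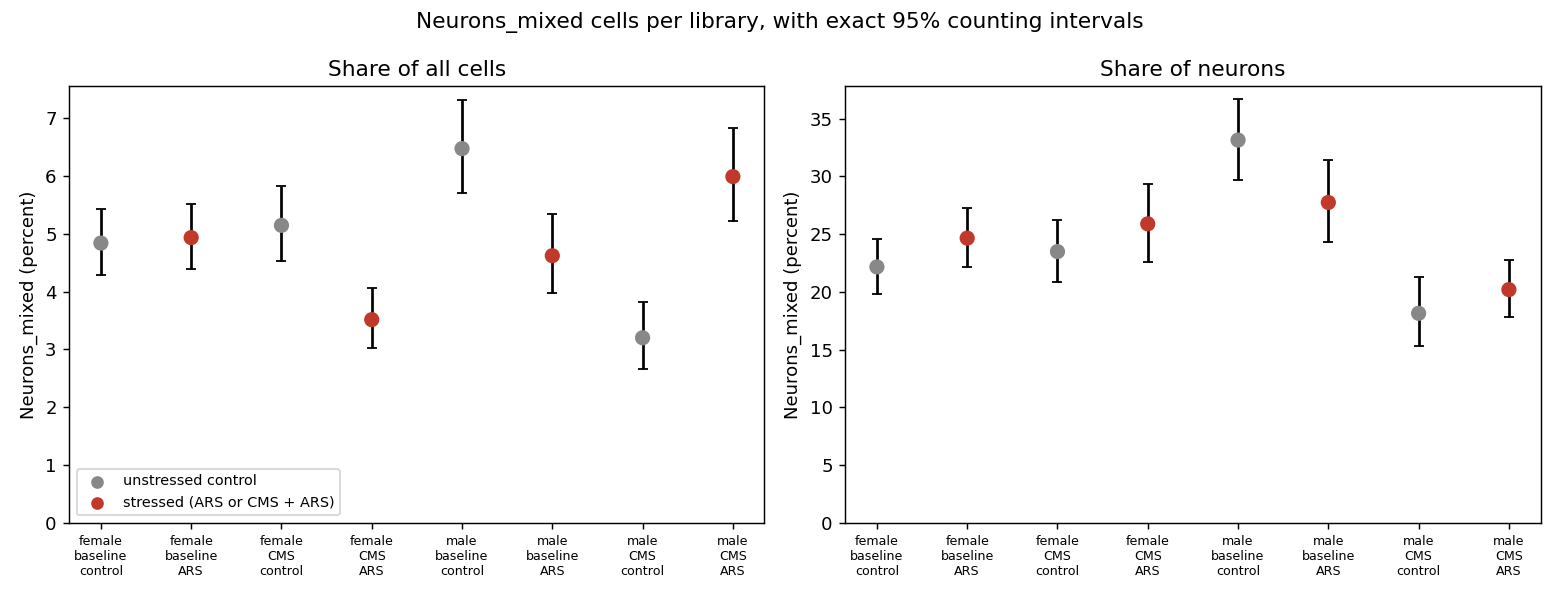
Neurons_mixed as a percent of all cells (left) and of neurons (right) in each of the 8 libraries; bars are exact Clopper-Pearson 95% intervals for counting error, grey points are controls and red points are stressed libraries. The male libraries hold the highest share of neurons (33.1%) and the lowest (18.1%), while the 4 female libraries lie between 22.2% and 25.9%.

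Stress did not move the share of neurons in 1 direction. Stressed over control, the share of neurons was 1.11-fold in baseline females (95% counting interval 0.962 to 1.29), 1.10-fold in CMS females (0.930 to 1.31), 1.11-fold in CMS males (0.910 to 1.36) and 0.837-fold in baseline males (0.711 to 0.985). Only the last interval left out 1. The mean share of neurons was 24.6% ± 3.21 (SD, n = 4) in stressed libraries and 24.2% ± 6.36 (SD, n = 4) in controls. The stressed libraries pool unlike treatments, ARS alone in the baseline cohort and ARS after 21 days of chronic mild stress in the CMS cohort. The fitted log2 fold was 0.033 ± 0.26 (SE), with a 95% interval of -0.55 to 0.62 (edgeR quasi-likelihood test, adjusted p = 0.901). The exact two-sided sign-flip permutation test over 4 pairs gave p = 0.625, where 0.125 is the smallest it can give.

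As a share of all cells, Neurons_mixed and the remaining neurons lay on the same side of 1 in 3 of 4 pairs of stressed and control libraries. In CMS males the share was 5.99% with stress and 3.20% without, a ratio of 1.87 (counting interval 1.504 to 2.33), and the remaining neurons had a ratio of 1.64 (1.49 to 1.81). In CMS females the ratio was 0.683 (0.564 to 0.827), beside 0.600 (0.540 to 0.667) for the remaining neurons. In baseline males it was 0.714 (0.591 to 0.862), beside 0.922 (0.818 to 1.04), and in baseline females 1.02 (0.867 to 1.20), beside 0.887 (0.815 to 0.965). Over all libraries the log2 fold was -0.041 ± 0.26 (SE; adjusted p = 0.953 by edgeR; exact sign-flip permutation p = 1). In this comparison edgeR and DESeq2 each called 0% of the 32 clusters tested by share of all cells and 0% of the 9 neuronal clusters tested by share of neurons, with 0 at an unadjusted p under 0.05 in either set.

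Between the sexes the 4 matched pairs split evenly. Female over male, the share of neurons was 0.668-fold in baseline controls (counting interval 0.577 to 0.775) and 0.889-fold after ARS (0.757 to 1.04), but 1.29-fold in CMS controls (1.06 to 1.58) and 1.28-fold in stressed mice of that cohort (1.08 to 1.53). The log2 fold was -0.011 ± 0.26 (SE; adjusted p = 0.966 by edgeR; exact sign-flip permutation p = 1) for the share of neurons and -0.14 ± 0.26 (SE; adjusted p = 0.976 by edgeR; exact sign-flip permutation p = 0.875) for the share of all cells. Of the 32 clusters 0% were called by edgeR and by DESeq2, with 3 and 4 at an unadjusted p under 0.05. Of the 9 neuronal clusters edgeR called 0% and DESeq2 called 1, with 1 at an unadjusted p under 0.05 in edgeR.

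The sex by cohort term, added after these values were seen, asks whether the female to male ratio differed between cohorts. For the share of neurons it was 0.75 ± 0.43 on the log2 scale (SE; 95% interval -0.26 to 1.75; edgeR unadjusted p = 0.124, adjusted p = 0.372), with 0% of 9 neuronal clusters called and 1 at an unadjusted p under 0.05. It passed the threshold in 1 of 8 fits that each left out a library, that without the male baseline ARS library (0.94). The SE of that fit was 0.097, beside 0.43 with all libraries, so the call rests in part on a smaller estimate of the spread. For the share of all cells it was 0.087 ± 0.51 (SE; adjusted p = 0.989 by edgeR). There 6.25% of 32 clusters were called, with 3 at an unadjusted p under 0.05.

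Against the baseline cohort, the CMS cohort had fewer Neurons_mixed cells among neurons in both male pairs, at 0.547-fold in controls (counting interval 0.452 to 0.663) and 0.728-fold in stressed mice (0.612 to 0.866). The female pairs were at 1.06-fold (0.909 to 1.24) and 1.05-fold (0.892 to 1.24). The log2 fold was -0.29 ± 0.26 (SE; 95% interval -0.88 to 0.30; adjusted p = 0.369 by edgeR; exact sign-flip permutation p = 0.5). Leaving out 1 library moved it to between -0.42 (without the female baseline control) and -0.13 (without the male baseline control). For the share of all cells it was -0.22 ± 0.26 (SE; adjusted p = 0.668 by edgeR; exact sign-flip permutation p = 0.5), with values from -0.47 (without the stressed male CMS library) to -0.016 (without the male CMS control). Among 32 clusters edgeR called 3.12% in this comparison and DESeq2 called 4. Among the 9 neuronal clusters edgeR called 0%, with 4 at an unadjusted p under 0.05, while DESeq2 called 3, not including Neurons_mixed (adjusted p = 0.154). Cohort, age and any separate handling of the cohorts cannot be told apart, and the stressed pairs of this contrast also differ by the 21 days of chronic mild stress.

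The interactions with stress had wide intervals. The sex by stress term was -0.45 ± 0.55 (SE) for the share of all cells and 0.23 ± 0.49 (SE) for the share of neurons, on the log2 scale (adjusted p = 0.904 and 0.745 by edgeR). The cohort by stress term was 0.39 ± 0.56 (SE) and 0.22 ± 0.55 (SE), with adjusted p = 0.978 and 0.885 by edgeR. In that term the kind of stress (ARS alone or after chronic mild stress) cannot be told apart from cohort and age. In both terms edgeR and DESeq2 called 0% of 32 and 0% of 9 clusters. At an unadjusted p under 0.05 edgeR had 1 of 32 and 0 of 9 in each term. As a ratio of folds, the 95% interval of the sex by stress term for the share of neurons ran from 0.513 to 2.66.

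Within the cluster, the doublet score was the measure that passed the threshold in a comparison. It averaged 0.541 ± 0.0385 (SD, n = 4) in the CMS cohort and 0.660 ± 0.0595 (SD, n = 4) in the baseline cohort. The CMS value was lower in 4 of 4 pairs, and the 2 sets of libraries did not overlap, at 0.503 to 0.581 and 0.596 to 0.740. The difference was -0.119 ± 0.0207 (SE; adjusted p = 0.0376 by limma over 29 clusters, of which 6.9% were called). An unadjusted p under 0.05 was found in 8 of the 29 clusters, so a shift between cohorts was not particular to Neurons_mixed. Here too, cohort, age and any separate handling cannot be told apart. The difference stayed negative in all 14 alternatives, from -0.175 to -0.104, but its adjusted p missed the threshold in 12 of them (0.0374 to 0.634 over the 14, by limma). Leaving out any single library other than female baseline ARS ended the call, with differences of -0.132 to -0.106 and adjusted p from 0.0813 to 0.236 by limma. Median UMIs, which the score follows, were also lower in the CMS cohort in 3 of 4 pairs (1161 ± 72.9 and 1245 ± 127, SD, n = 4). Among cells with at most 2000 UMIs the difference was -0.133 (adjusted p = 0.124 by limma).

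No other measure of the cluster passed the threshold. Mitochondrial share was lower in females in 4 of 4 pairs, at 18.8% ± 1.21 (SD, n = 4) beside 21.0% ± 1.78 (SD, n = 4), a difference of -2.19 points with a 95% interval of -5.13 to 0.75 (adjusted p = 0.471 by limma; the ranges overlapped). Without the male baseline control library the difference was -0.97 points. Median genes were lower in stressed libraries in 4 of 4 pairs, at 707 ± 33.5 beside 760 ± 61.5 (SD, n = 4 each), a 0.931-fold change with a 95% interval of 0.839 to 1.03 (adjusted p = 0.889 by limma). On the log2 scale this change was -0.10, and it was -0.059 without the female baseline control library and -0.060 without the male CMS control library. The doublet score was higher in females in 4 of 4 pairs, by 0.0681 ± 0.0207 (SE; adjusted p = 0.206 by limma).

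In the remaining comparisons the pairs did not all point 1 way. UMIs were 0.938-fold in stressed libraries, 1.04-fold in females and 0.935-fold in the CMS cohort (adjusted p = 0.979, 0.783 and 0.641 by limma). Genes were 1.03-fold in females and 0.944-fold in the CMS cohort (adjusted p = 0.796 and 0.421 by limma). Mitochondrial share differed by 0.69 points with stress and by 0.37 points between cohorts (adjusted p = 0.734 and 0.814 by limma), and the doublet score by -0.0378 with stress (adjusted p = 0.616 by limma). Differences in S score were between -0.000834 and 0.00376 and those in G2/M score between 0.00034 and 0.000657, with adjusted p from 0.517 to 0.984 by limma. Of 29 clusters, limma called 10.3% for mitochondrial share between cohorts and 20.7% for G2/M score between the sexes, none of them Neurons_mixed. These comparisons had 6 and 9 clusters at an unadjusted p under 0.05. In the other 15 comparisons of measures it called 0%, with 0 to 6 clusters at an unadjusted p under 0.05.

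The share of neurons was set beside 4 properties of the libraries, with 8 libraries in each relation. With the median mitochondrial share of non-neuronal cells (4.10% to 4.45%) Pearson's r was -0.442 and Spearman's rho -0.405 (exact permutation p = 0.279 and 0.327). With the median UMIs of non-neuronal cells r was 0.406 and rho 0.357 (exact permutation p = 0.330 and 0.389). With neurons as a percent of cells r was -0.364 and rho -0.476 (exact permutation p = 0.360 and 0.243), and with the number of cells r was -0.0703 and rho 0.0952 (exact permutation p = 0.895 and 0.840). The number of neurons enters both the share of neurons and neurons as a percent of cells, so these 2 values are not independent by construction. After adjustment over the 4 relations the lowest p was 0.479 for r and 0.519 for rho. Without the 2 libraries farthest from the median of the property, r was -0.884, 0.377, -0.0949 and 0.0631 in that order. The libraries left out differed between properties, and for the first they were the female controls of both cohorts. The relations with non-neuronal mitochondrial share and with neurons as a percent of cells thus depended on the libraries included.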

How the data were processed

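The deposited table, 1 line per cell, gives the experiment, condition, sex, cell type, cluster and 6 numbers, and cells were joined to the 8 libraries through these names. Per the submitters' processing notes, Cell Ranger 3.0.2 and 3.1.0 (mm10) and Seurat 3.1.3 were used. UMIs and genes per cell are deposited as counts. The deposited mitochondrial value is a fraction (times the UMIs it gave a whole number within 1e-06) and was turned into percent. Doublet, S and G2/M scores are used as deposited; the sources used here do not give the tools behind them, the filters or any doublet removal by the authors, and no cell was removed here.

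The main test of cell numbers was edgeR's quasi-likelihood F test (edgeR 4.0.16, R 4.3.3) in clusters with at least 80 cells, with all cells or all neurons of a library as its size, no abundance trend, and sex, cohort and exposure as terms. Library medians (log2 for UMIs and genes) and mean scores were tested with limma 3.58.1 in the 29 clusters with at least 10 cells in every library. Adjusted p-values are Benjamini-Hochberg values within a comparison (threshold 0.05). Alternatives included DESeq2 1.42.0, limma on log odds (0.5 cells added), a block for matched pairs and leaving out each library. For edgeR, the SE is the size of the log2 fold divided by the square root of F. Its interval is built from that SE and the degrees of freedom of the test. Counting intervals of ratios and shares were computed with scipy 1.17.1. Only the edgeR test of the share of all cells and the limma test of measures were tried on simulated data. The share of neurons, the sex by cohort term and the permutation tests were not tried that way.

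The cluster, its comparisons and the lists of clusters were chosen with earlier results of these data known. Clusters named are Neurons_mixed, the 3 set beside it in advance (GABA_1, Glut_1 and AVP_2), the other neuronal clusters, and the neighbours and extremes in each order of clusters.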

Additional observations from a re-analysis of the deposited data

Results flagged for a closer look

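Within sets of 4 libraries that share an exposure, sex or cohort, the 8 measures of Neurons_mixed gave 5 single values far from the other 3 by Dixon's criterion, out of 48 sets; chance alone marks about 1 in 20 sets. As a share of all cells, the male baseline control library had 6.47%, beside 4.62% to 4.93% in the other baseline libraries. Median UMIs were 1260 in the female baseline ARS library, beside 1130 to 1131 in the other stressed libraries, and 1270 in the male CMS control library, beside 1114 to 1131 in the rest of its cohort. Median genes in the female baseline ARS library were 757, beside 686 to 693 in the other stressed libraries. The mean S score of the female baseline control library was -0.0164, beside -0.0112 to -0.0104 in the other controls.

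In 5 of 24 such comparisons checked, the same contrast had opposite signs in 2 sets of libraries, with both pairs of each set on the same side. Random signs also give such cases, and the number expected by chance was not worked out. The measures are related, UMIs and genes above all, so these cases are not independent of each other. Female minus male, the share of neurons differed by -7.04 points in the baseline cohort and by 5.52 points in the CMS cohort. The sex by cohort term tested this difference and gave 0.75 on the log2 scale, with an adjusted p = 0.372 by edgeR. The other 4 differences were not tested. Female minus male, median UMIs differed by 187 in the baseline cohort and by -78.5 in the CMS cohort, where the pairs differed by -156 and -1. Median genes differed by 89.5 and by -36. The mean G2/M score differed by -0.00355 and by 0.00463. Stressed minus control, the mean S score differed by 0.00167 in females, where 1 pair differed by only 1.12e-05, and by -0.00277 in males.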

How the results depend on the processing

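Over 30 results and 415 alternatives, 344 left direction and call in place, 58 turned the sign of a difference that was not called, 1 brought a call and 12 ended one. No library has a replicate, and with libraries of 121 to 285 Neurons_mixed cells counting error alone spans several points of the share of neurons. The block for matched pairs changed no call of the cluster.

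The fall of the doublet score in the CMS cohort lost its call with library medians (-0.175; most library medians are 0), with the library mean subtracted (-0.104), with trend and robust moderation (-0.119), with at least 20 cells in every library (-0.119, 21 clusters tested) and with cells of at most 2000 UMIs (-0.133). With each library left out it ran from -0.132 to -0.106.

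The sex by cohort term for the share of neurons ran from 0.54 to 0.94 on the log2 scale with each library left out. For the share of all cells it ran from -0.50 to 0.74. With each library left out, the share of all cells changed by -0.27 to 0.12 with stress, by -0.34 to 0.11 between the sexes and by -0.47 to -0.016 between cohorts, with a sex by stress term of -0.97 to 0.042 and a cohort by stress term of -0.12 to 0.93. The share of neurons changed by -0.087 to 0.22 with stress, by -0.13 to 0.16 between the sexes and by -0.42 to -0.13 between cohorts, with terms of -0.20 to 0.57 and of -0.20 to 0.57. With DESeq2 these terms for the share of neurons were -0.029 and -0.010. With cell types in place of clusters, the share of all cells changed by 0.089 with stress. Limiting cells to a mitochondrial share of at most 20%, an alternative chosen after seeing the data, gave 0.21 for female against male in the share of all cells and 0.21 in the share of neurons, -0.038 for stress in the share of neurons and -0.11 for its cohort by stress term.

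With each library left out, mitochondrial share differed by -0.13 to 1.90 points with stress, by -3.01 to -0.97 between the sexes and by -0.31 to 1.59 between cohorts, and genes by -0.15 to -0.059 (log2) with stress. The S score differed by -0.00229 to 0.00114 with stress and by -0.00257 to 0.000862 between the sexes. The G2/M score differed by -0.000942 to 0.00232 with stress, by -0.000637 to 0.00221 between the sexes and by -0.00126 to 0.00200 between cohorts. With the library value subtracted, the cohort difference was 0.094 for UMIs and 0.073 for genes (log2), the stress difference was 0.000733 for the doublet score and -0.000223 for the G2/M score, and the sex difference was -0.0032 for the G2/M score. With library medians, the S score differed by 0.000434 between the sexes and the G2/M score by -0.000428 with stress and by -0.000424 between the sexes. The cause of these changes was not tested.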
